A study of Mus musculus with 7 samples.

Results

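The genes described here encode the voltage-gated sodium and calcium channel subunits and were chosen by symbol: sodium channel pore (Scn with a number and a) and beta subunits (Scn with a number and b), calcium channel pore subunits (Cacna1), and the calcium channel alpha2delta (Cacna2d), beta (Cacnb) and gamma (Cacng) subunits. The rule found 39 of the 23366 genes in the count table, of which 33 had at least 1 count and 24 had enough counts to be tested. The libraries came from primary mouse motor neuron cultures of strain C57BL/6, prepared at embryonic day 13.5, with no mutant allele or transgene in the labels. The dissection protocol also names a rat embryonic stage, while the organism, strain and genome build given are all mouse. Duplicates are named in the study's design, but 3 sample titles are OE. Overexpression libraries (OE, n = 3) came from cultures given a lentivirus for miR-218 overexpression, knockdown libraries (KD, n = 2) from cultures given a lentivirus for miR-218 knockdown, and control libraries (n = 2) from cultures given an empty lentivirus. All were enriched for motor neurons over a density gradient and grown with CNTF, GDNF and horse serum. All received 200 µM fluorodeoxyuridine, which blocks the division of glia, after 5 days. The labels name neither the virus promoter nor the share of cells transduced, and separate cultures are not stated for the libraries. The p-values therefore cover only the spread among the 7 libraries, which may be technical.

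Voltage-gated sodium channels carry the rising phase of the action potential, and voltage-gated calcium channels couple depolarisation to transmitter release, gene expression and pacemaking. Each has a large pore subunit that opens with voltage. Smaller accessory subunits bring the pore to the membrane and set its gating. Motor neurons use sodium channels of the axon initial segment to start spikes and calcium channels of the nerve terminal to release acetylcholine. A microRNA lowers transcripts that hold a match to its seed, bases 2 to 8, and the mature miR-218-5p and the matches in the 3' UTRs of 4 subunit genes that were called in at least 1 comparison are printed here, because the results return to them. The miRNA is from RefSeq (build GRCm38.p6, RNA letters, seed in capitals), and the sites are from mouse build mm9 (5′ to 3′ on the gene's strand, seed match in capitals).
miR-218-5p: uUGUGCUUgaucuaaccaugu
Cacnb4 near site, 7mer, chr2:52289899-52289927, minus strand: cttaatttggcAAGCACAgcacagtatct
Cacnb4 far site, 7mer, chr2:52284803-52284831, minus strand: tgaggagaaagAAGCACAtttgttatagc
Scn2b site, 8mer, chr9:44937405-44937434, plus strand: tcatgagaacaAAGCACAAtatttcaggac
Scn3b site, 7mer, chr9:40099134-40099162, plus strand: cactagtgcacAAGCACAtggttccaata
Scn9a site, 8mer, chr2:66319862-66319891, minus strand: atgagccatttAAGCACAAaggggctttat
The Cacnb4 sites begin at bases 93 and 5189 of a 3' UTR of 6164 bases. The Scn2b site begins at base 3029 of 3766, the Scn3b site at base 3123 of 3180 and the Scn9a site at base 1595 of 3338.

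Counts per library summed to 2879382 to 3360686 in OE, 3081800 to 3329184 in KD and 1591812 to 2099714 in control, so the controls were the shallowest. Precursor reads of Mir218-1, which encodes miR-218, were 5.54-fold above control in OE (edgeR, log2 2.47, SE 0.16) and gave log2 -0.13 in KD, where they do not measure mature miR-218. Of 12 motor neuron markers 5 had enough counts to be tested, and Mnx1 and Lhx4 had 0 counts in every library. All 12 general neuron markers and all 14 astrocyte and radial glia markers were tested, so the cultures held both kinds of RNA. In bulk RNA, fewer cells of a type and less RNA per cell cannot be told apart. Expression is given as CPM, a count scaled to its library's size. CPM is not divided by gene length, so it was compared between libraries and not between genes.

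More channel genes were called in KD against control and in OE against KD than in OE against control. In KD against control the accessory genes Cacna2d1 and Cacna2d2 fell 3.01-fold and 2.67-fold, the embryonic sodium channel gene Scn3a and the gamma genes Cacng2 and Cacng5 fell, and the sodium channel beta gene Scn3b rose. In all there were 5 of 24 tested members lower and 2 higher, against 4.71% lower, 7.0% higher and 11.7% in either direction among the 12134 genes tested (edgeR quasi-likelihood test, Benjamini-Hochberg adjusted p under 0.05 over all genes and a change over 1.5-fold, here called). Without control 1 and without KD 1 the count of higher members was 1. In OE against control Cacnb4, a calcium channel beta subunit gene, was the 1 member called lower, and 0 were called higher, against 1.26% lower, 3.65% higher and 4.91% in either direction of all genes. For the higher direction the DESeq2 and limma-voom fits also called 0, and 2 members had an unadjusted edgeR p under 0.05. Of the 12134 genes tested, 1275 were higher at that threshold. In OE against KD, which tests whether the changes from control differ between the viruses, 5 members were higher and 2 lower, against 2.93% higher, 2.37% lower and 5.3% in either direction of all genes. The 5 higher members include Scn9a, which had enough counts to be tested only through OE 2 and OE 3, where it was high. The comparisons share libraries, so their counts are not independent.

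**Figure D1:**
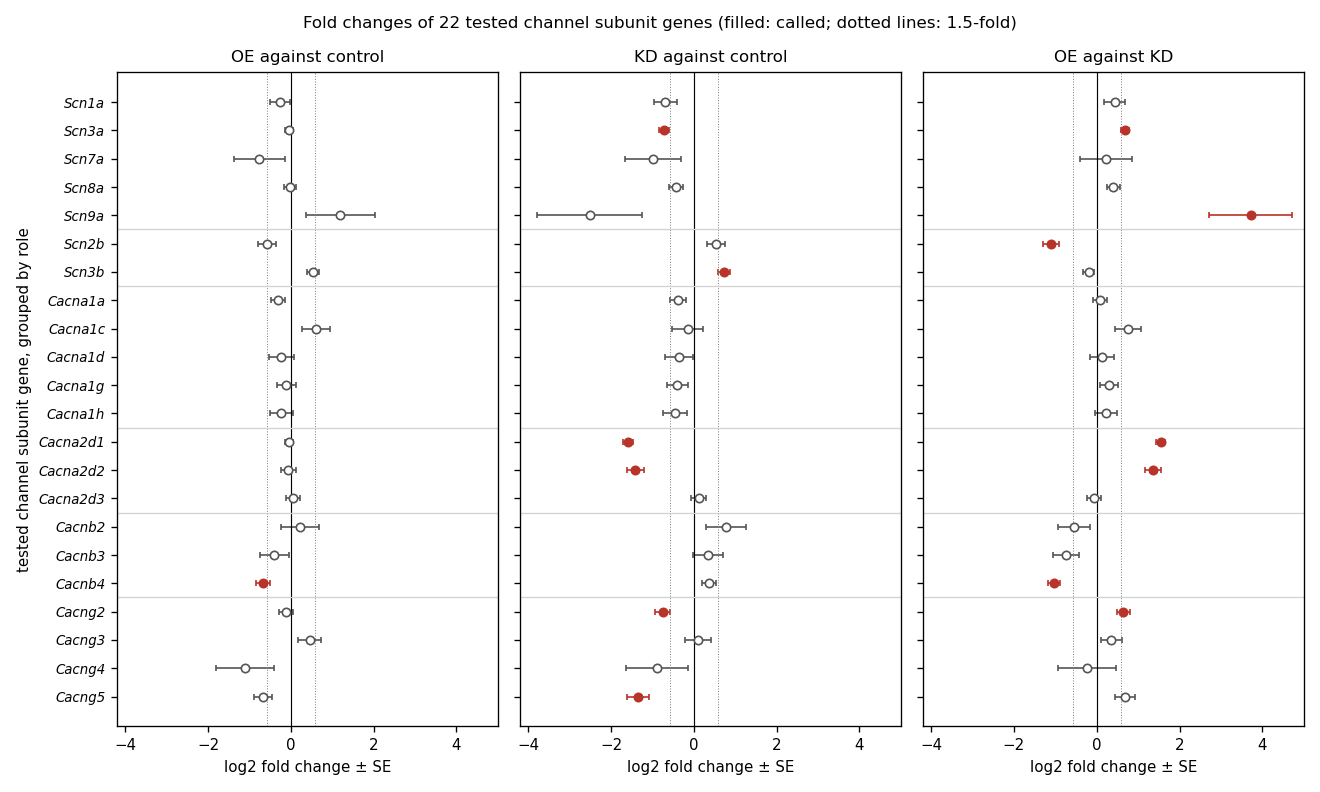
Log2 fold change (x axis) with its standard error for 22 of the 24 tested subunit genes (rows, grouped by role) in OE against control, KD against control and OE against KD. Filled points were called; the accessory genes Cacna2d1 and Cacna2d2 lie at -1.59 and -1.42 in KD against control and near 0 in OE against control.

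The median log2 fold change of the 24 tested members was -0.09 in OE against control, -0.41 in KD against control and 0.26 in OE against KD, beside 0.00, 0.00 and -0.01 over all genes tested. In KD against control all 11 tested pore genes lay below 0, as did 49.9% of all genes, and 1 of the 11 was called. Of the 13 tested accessory genes 5 lay below 0. The filter on low counts chose which members were tested, so these counts describe the tested members and not the whole family. Summed over the 39 members, CPM were 1418 to 1569 in OE, 1185 and 1188 in KD, and 1561 and 1559 in control.

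Among the sodium channel pore genes, Scn3a fell in KD. Scn3a encodes the pore subunit that prevails in embryonic neurons. It had 243.3, 232.7 and 273.7 CPM in OE, 148.6 and 162.8 CPM in KD, and 255.6 and 259.5 CPM in control. Both KD libraries lay below every OE and control library, while OE and control overlapped. The fall was 1.65-fold in KD against control (edgeR log2 -0.73, SE 0.12, adjusted p = 3.58e-05), and OE lay 1.61-fold above KD (log2 0.68, SE 0.11, edgeR adjusted p = 2.99e-05). OE against control gave log2 -0.04 (SE 0.11, edgeR adjusted p = 0.882).

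Scn8a, the main pore subunit of mature axon initial segments and nodes of Ranvier, had 130, 113 and 128 CPM in OE, 95.2 and 92.1 CPM in KD, and 149.6 and 99.3 CPM in control. The KD libraries were lowest here too, but the controls spread more widely than the other groups and no comparison passed (KD against control log2 -0.42, SE 0.17, edgeR adjusted p = 0.0803). Without control 2 the fall in KD was called (log2 -0.67, edgeR adjusted p = 0.00568), whereas without control 1 it was -0.088 (edgeR adjusted p = 0.827). In OE against control the value was 0.32 without control 1 in place of -0.02. Scn1a, a pore subunit known for inhibitory interneurons, had 31.9, 23.8 and 40.7 CPM in OE, 26.2 and 21.7 CPM in KD, and 33.7 and 44.2 CPM in control, and did not pass (KD against control log2 -0.69, SE 0.28, edgeR adjusted p = 0.0909).

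Scn9a, a pore subunit of sensory and sympathetic neurons, was close to the limit of detection. It had 6, 17 and 19 counts in OE, 1 and 1 count in KD, and 4 and 3 counts in control, so KD was lowest and OE 1 lay near control. OE against KD was called (log2 3.72, SE 1.00, edgeR adjusted p = 0.0159), but the KD libraries together held 2 counts, and the ratio of 14.2 per total count had an exact 95% counting interval of 3.68 to 121. The call was lost without KD 1 (log2 3.76, edgeR adjusted p = 0.155) and without KD 2 (3.68, edgeR adjusted p = 0.166). Scn9a passed the filter on low counts through OE 2 and OE 3, the libraries where it was high, and without either of them it was not tested. Scn9a shares exon bases with the antisense gene Gm13629, and the labels do not say whether counting used strand. The glial sodium-sensing gene Scn7a had 8 to 14 counts per library and did not pass in the 3 comparisons (log2 -0.76 in OE against control, -0.99 in KD against control and 0.23 in OE against KD).

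Scn3a, Scn1a, Scn9a and Scn7a lie in 1 cluster of chromosome 2 in mm9, with Scn3a at 65295175 to 65405684 and Scn7a at 66511482 to 66622971. The cluster also holds Scn2a1, an older symbol that the rule does not take in. Scn2a1 encodes a pore subunit of unmyelinated axons and initial segments. It had 275.2, 293.5 and 270.0 CPM in OE, 217.6 and 234.1 CPM in KD, and 329.9 and 386 CPM in control, with no overlap between groups. It fell in KD against control (edgeR log2 -0.66, SE 0.11, adjusted p = 3.87e-05), and in OE against control it passed the p threshold below 1.5-fold (log2 -0.35, SE 0.10, edgeR adjusted p = 0.0214). Without control 2 its KD value was -0.55 (edgeR adjusted p = 0.00194), under the 1.5-fold threshold. All 5 genes of the cluster had negative log2 values in KD against control, between -0.66 for Scn2a1 and -2.52 for Scn9a.

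The sodium channel beta gene Scn3b rose in KD. It encodes a beta subunit that binds the pore without a covalent bond. Scn3b had 123.5, 119.8 and 135.2 CPM in OE, 145 and 144 CPM in KD, and 93.3 and 80.7 CPM in control, with no overlap between groups. The rise in KD against control was 1.66-fold (log2 0.73, SE 0.15, edgeR adjusted p = 0.000721). OE against control passed the p threshold below 1.5-fold (log2 0.53, SE 0.14, edgeR adjusted p = 0.0156), and without control 1 it was called (log2 0.65, edgeR adjusted p = 0.0222). The p threshold was missed without control 2 (0.44, edgeR adjusted p = 0.143), without OE 3 (0.48, edgeR adjusted p = 0.084) and with a replicate block (0.48, edgeR adjusted p = 0.0861). OE against KD gave -0.20 (SE 0.13, edgeR adjusted p = 0.404).

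Scn2b encodes a beta subunit held to the pore by a disulfide bond, and it differed between the viruses. It had 27.98, 34.24 and 48.14 CPM in OE, 84.9 and 73.9 CPM in KD, and 53.8 and 55.7 CPM in control. OE was lowest, control lay between and KD was highest, with no overlap between any pair of groups. OE lay 2.16-fold below KD (log2 -1.11, SE 0.19, edgeR adjusted p = 0.000148), and neither OE (log2 -0.57, SE 0.21, edgeR adjusted p = 0.106) nor KD (0.54, SE 0.22, edgeR adjusted p = 0.0979) passed against control. Without OE 3 the fall in OE against control was called (log2 -0.82, edgeR adjusted p = 0.0277). Scn4b, the other disulfide-linked beta gene, had 0 to 6 counts per library and was not tested. Scn2b (44925959 to 44938153) and Scn4b (44946520 to 44962235) are neighbours on the plus strand of chromosome 9 in mm9, and Scn3b (40076801 to 40099203) lies on the same chromosome.

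The ratio of summed beta counts to summed pore counts of the sodium channel members was formed after their values were seen. It was 0.493, 0.584 and 0.529 in OE, 1.13 and 1.02 in KD, and 0.424 and 0.441 in control. The KD libraries held the highest ratios, and OE and control did not overlap either. This ratio does not count Scn2a1 and is a ratio of reads, not of protein.

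**Figure D2:**
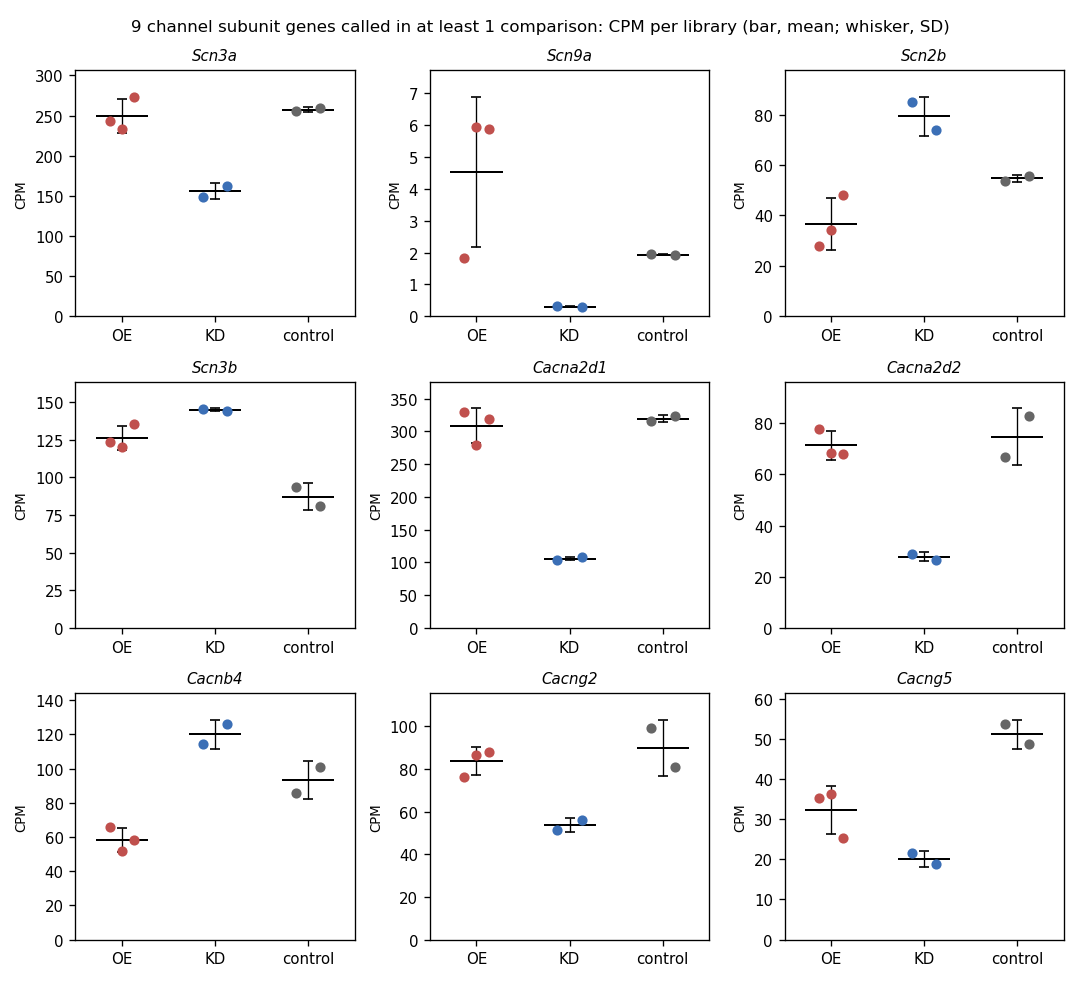
CPM (y axis, from 0) in each library for 9 of the 10 subunit genes called in at least 1 comparison, with OE, KD and control from left to right; points are libraries, bars means and whiskers SD. Cacna2d1 sits at 104 and 108 CPM in KD, below all OE and control libraries, and Cacnb4 and Scn2b are lowest in OE and highest in KD.

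No calcium channel pore gene was called in any of the 3 comparisons (edgeR, 5 of 10 tested). Of all genes, 4.91% were called in either direction in OE against control, 11.7% in KD against control and 5.3% in OE against KD. With 5 genes tested, a count of 0 does not show that the pore genes were unchanged. At an unadjusted edgeR p under 0.05, 0 of the 5 passed in OE against control, 1 in KD against control and 1 in OE against KD. Of the 12134 genes tested, 1275 were higher and 1055 lower at that threshold in OE against control. The same counts were 1701 and 1618 in KD against control, and 1261 and 1175 in OE against KD. DESeq2 and limma-voom called no calcium channel pore gene. Cacna1a encodes the P/Q-type pore that drives release at the mature neuromuscular junction. It had 63.6, 57.3 and 80.5 CPM in OE, 57.4 and 69.2 CPM in KD, and 86.5 and 79.4 CPM in control. Both KD libraries lay below both controls, and OE overlapped both groups (KD against control log2 -0.39, SE 0.19, edgeR adjusted p = 0.183). The L-type gene Cacna1c had 17.3, 25.9 and 15.4 CPM in OE, 11.9 and 11.1 CPM in KD, and 13.2 and 12.2 CPM in control. OE was highest without overlap, yet it did not pass (against control log2 0.61, SE 0.34, edgeR adjusted p = 0.331; against KD 0.76, SE 0.31, edgeR adjusted p = 0.148). The L-type gene Cacna1d and the T-type genes Cacna1g and Cacna1h, whose channels open near rest, gave log2 -0.23, -0.11 and -0.23 in OE against control and -0.35, -0.40 and -0.45 in KD against control. Their OE against KD values were 0.13, 0.29 and 0.22.

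Both Cacna2d1 and Cacna2d2, which encode alpha2delta subunits, fell in KD. Alpha2delta subunits are largely extracellular and carry calcium channels to the terminal. Some of them bind gabapentin, and the Cacna2d1 product also binds thrombospondins. Cacna2d1 had 329.4, 278.8 and 318.5 CPM in OE, 104.3 and 107.6 CPM in KD, and 315.7 and 323.5 CPM in control. Means were 309 ± 26.6 CPM in OE, 106 ± 2.40 in KD and 319.6 ± 5.52 in control (SD, n = 3, 2 and 2). The KD libraries stood apart from all others, and OE overlapped control. The fall in KD against control was 3.01-fold (log2 -1.59, SE 0.12, edgeR adjusted p = 1.01e-11), OE lay 2.92-fold above KD (log2 1.54, SE 0.11, edgeR adjusted p = 3.38e-12), and OE against control gave -0.05 (SE 0.10, edgeR adjusted p = 0.854).

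Cacna2d2, an alpha2delta gene known for cerebellar function, had 77.9, 68.5 and 67.9 CPM in OE, 29.0 and 26.7 CPM in KD, and 67.0 and 82.7 CPM in control. KD was again lowest without overlap, and OE lay within the range of control. It fell 2.67-fold in KD against control (edgeR log2 -1.42, SE 0.21, adjusted p = 6.89e-06), and OE lay 2.56-fold above KD (log2 1.36, SE 0.19, edgeR adjusted p = 3.57e-06). OE against control gave -0.06 (SE 0.18, edgeR adjusted p = 0.905). Cacna2d1 lies on chromosome 5 (15440509 to 15880329, plus strand) and Cacna2d2 on chromosome 9 (107301943 to 107431677, plus strand) in mm9, and neither 3' UTR holds a 6mer seed match or longer. Cacna2d2 shares exon bases with the antisense gene Gm17141.

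Cacna2d3, whose product does not bind gabapentin, did not share this pattern. It had 59.6, 79.0 and 73.4 CPM in OE, 72.1 and 75.4 CPM in KD, and 68.4 and 67.3 CPM in control. OE spanned both other groups, and KD against control gave log2 0.12 (SE 0.19, edgeR adjusted p = 0.741). The ratio of Cacna2d1 plus Cacna2d2 counts to Cacna2d3 counts, formed after the values were seen, was 6.83, 4.40 and 5.26 in OE, 1.85 and 1.78 in KD, and 5.59 and 6.04 in control. The KD ratios were the lowest, without overlap.

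**Figure D3:**
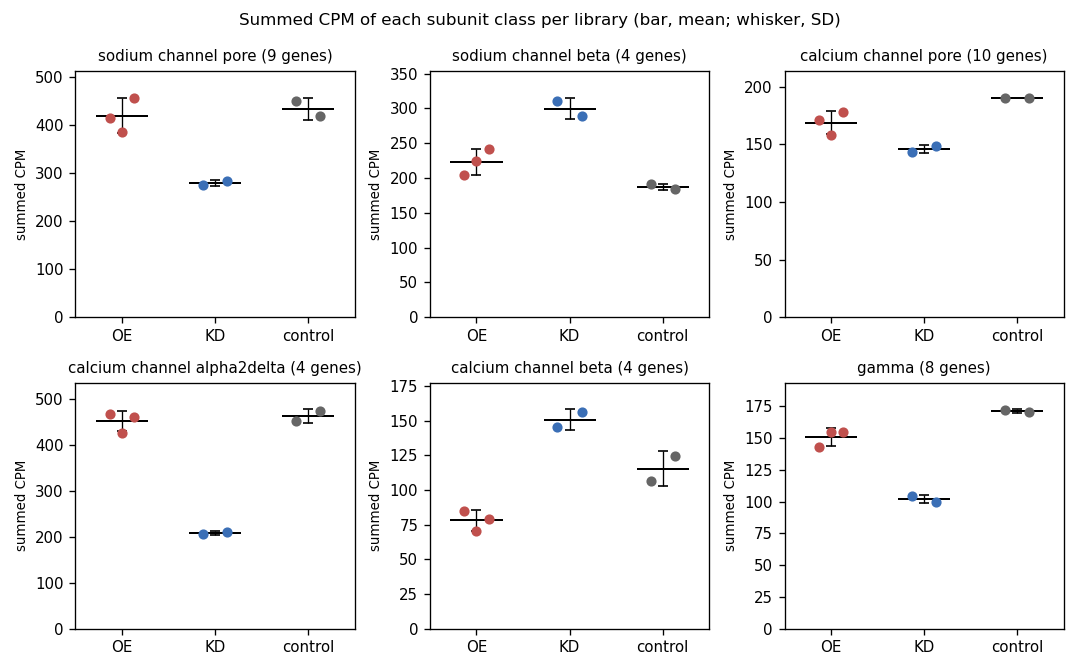
Summed CPM (y axis, from 0) of each subunit class in each library, with OE, KD and control from left to right; points are libraries, bars means and whiskers SD, and each title gives the number of genes summed. The alpha2delta sum was 205 and 211 CPM in KD, against 451 and 473 CPM in control, while the sodium channel beta sum was 311 and 289 CPM in KD, against 191 and 184 CPM in control.

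Cacnb4 was the calcium channel beta gene that differed. Beta subunits bind an intracellular loop of the pore and carry it to the membrane, and loss of this gene in the lethargic mouse causes ataxia and seizures. Cacnb4 had 65.7, 51.7 and 58.0 CPM in OE, 114 and 126 CPM in KD, and 85.5 and 101 CPM in control. OE was lowest, control lay between and KD was highest, with no overlap between groups. OE lay 1.59-fold below control (log2 -0.67, SE 0.16, edgeR adjusted p = 0.00829) and 2.05-fold below KD (log2 -1.04, SE 0.15, edgeR adjusted p = 8.67e-06). KD against control did not pass (0.37, SE 0.17, edgeR adjusted p = 0.148). The fall in OE against control was lost without control 2 (log2 -0.54, edgeR adjusted p = 0.127) and, on the fold threshold, without OE 2 (-0.58, edgeR adjusted p = 0.0465). Cacnb4 (chromosome 2, 52283845 to 52532350, minus strand, mm9) shares exon bases with the antisense gene A430018G15Rik.

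The other beta genes had few reads. Cacnb3 had 12.2, 9.78 and 10.2 CPM in OE, 19.4 and 16.4 CPM in KD, and 10.3 and 18.6 CPM in control, and Cacnb2 had 6.39 to 10.8 CPM in OE, 11.5 and 13.5 CPM in KD, and 10.8 and 3.20 CPM in control. KD exceeded OE without overlap in both genes, while the controls spread widely. Neither passed in any comparison (OE against KD log2 -0.73 and -0.55, edgeR adjusted p = 0.174 and 0.464).

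Of the gamma genes, Cacng5 and Cacng2 fell in KD. Most proteins of this family serve as AMPA receptor partners more than as calcium channel subunits, and Cacng2 encodes stargazin, which brings AMPA receptors to the synapse. Cacng5 had 35.3, 36.3 and 25.3 CPM in OE, 21.5 and 18.8 CPM in KD, and 53.8 and 48.7 CPM in control. KD was lowest, OE lay between and control was highest, with no overlap. It fell 2.55-fold in KD against control (log2 -1.35, SE 0.26, edgeR adjusted p = 0.000311), while OE did not pass against control (-0.67, SE 0.23, edgeR adjusted p = 0.07) or KD (0.68, SE 0.24, edgeR adjusted p = 0.0734). Without OE 3 the OE against KD difference was called (0.83, edgeR adjusted p = 0.0441).

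Cacng2 had 76.0, 86.6 and 87.9 CPM in OE, 51.2 and 56.0 CPM in KD, and 99.2 and 80.7 CPM in control. Both KD libraries lay below all others, and OE overlapped control. The fall was 1.69-fold in KD against control (edgeR log2 -0.75, SE 0.18, adjusted p = 0.00365) and was lost without control 1 (-0.59, edgeR adjusted p = 0.0743). OE lay 1.56-fold above KD (log2 0.64, SE 0.16, edgeR adjusted p = 0.00903), a call that was lost without KD 1 (0.58, edgeR adjusted p = 0.136) and without KD 2 (0.71, edgeR adjusted p = 0.0561). Cacng2 shares exon bases with an antisense gene. Cacng3 and Cacng4, which also encode AMPA receptor partners, did not pass (log2 0.46 and -1.12 in OE against control, 0.10 and -0.88 in KD against control, 0.36 and -0.23 in OE against KD). Cacng5, Cacng4 and Cacng1 are neighbours on the minus strand of chromosome 11 in mm9, between 107564532 and 107776369.

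A 7mer or 8mer match to the miR-218-5p seed stood in the longest annotated 3' UTR of 7 of the 24 tested members (29.2%), against 16.2% of the 11133 tested genes with an annotated 3' UTR. The members' 3' UTRs were longer, with a median of 2114 bases against 1304. The 7mer searched was AAGCACA and the 8mer AAGCACAA, on the gene's strand alone, and every 8mer contains the 7mer. The 6mer is AGCACA. A 6mer followed by A but not preceded by A was counted as a 6mer, so this other 7mer form was not counted as a match. A match is a run of letters and not evidence that the microRNA binds. Besides the 4 genes shown above, Cacna1g holds an 8mer and Scn1a and Cacna1h a 7mer each, and the untested Scn4b and Cacna1i hold matches as well.

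Members with a match did not share a direction. In OE against KD both members called lower, Cacnb4 and Scn2b, hold a match, while Scn9a, with an 8mer, was called higher on few counts. Over all tested genes, 98 of the 1804 with a match were called lower and 49 higher in that comparison. Among the 9329 without a match, 170 were called lower and 294 higher. Of the 4 other members called higher in OE against KD, Cacna2d1, Cacna2d2 and Cacng2 hold no 6mer match and Scn3a holds a 6mer without the longer match. Scn3b has its match near the annotated end of the 3' UTR and rose in KD against control (log2 0.73). It also lay above control in OE (0.53, under the 1.5-fold threshold), and OE against KD gave -0.20 and was not called. The 7 members with a match had a median log2 of -0.23 in OE against control and 0.22 in OE against KD, and the 17 without had -0.05 and 0.36. Over all tested genes the medians were -0.11 and -0.09 with a match and 0.02 and 0.01 without.

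**Figure D4:**
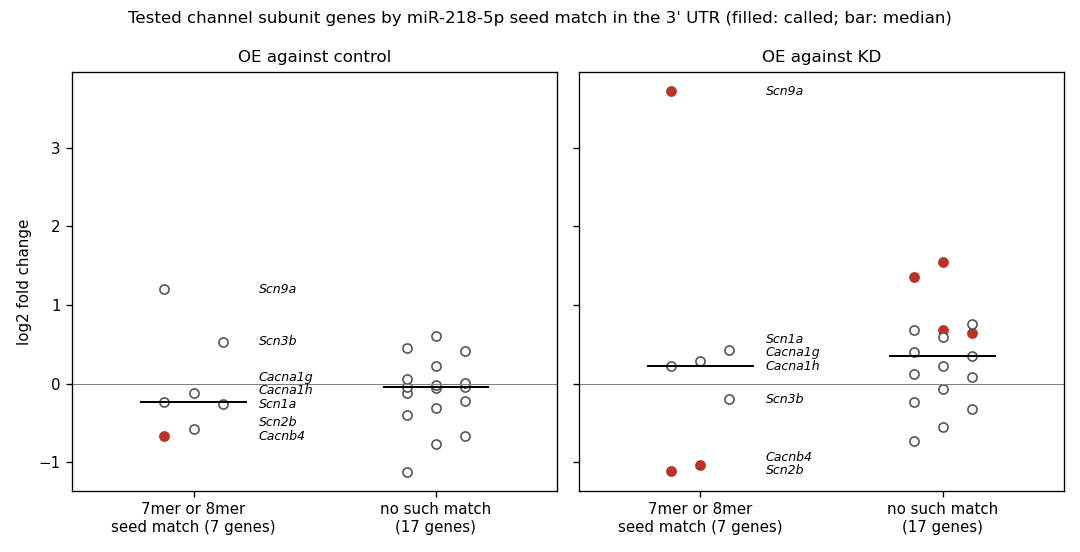
Log2 fold change (y axis) of the tested subunit genes with a 7mer or 8mer match to the miR-218-5p seed in the 3' UTR (7 genes, named) and without (17 genes), in OE against control and OE against KD. Filled points were called and bars are medians; Cacnb4 (-0.67 and -1.04) and Scn2b (-0.57 and -1.11) lie lowest among the genes with a match, and Scn9a highest.

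The remaining 15 members were not tested. Of the 39, 6 had 0 counts in all 7 libraries, namely the skeletal muscle sodium channel gene Scn4a, the nociceptor genes Scn10a and Scn11a, the retinal Cacna1f, and Cacng6 and Cacng8. The other 9 had at most 6 counts in any library. They include the N-type gene Cacna1b, whose channel drives release at young synapses, with 4, 6 and 4 counts in OE, 4 and 6 in KD, and 3 and 5 in control. They also include the R-type gene Cacna1e (0 to 6 counts), the T-type gene Cacna1i, Cacna2d4, Cacnb1, Scn4b, Cacng7 and the skeletal muscle genes Cacna1s and Cacng1. Differences in these genes were not detectable at this depth.

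Genes that work with the channels were listed in 5 groups, and 15 of the listed genes were called in at least 1 comparison. Of 22 tested sodium channel partners, 1 was lower in OE against control, 3 were lower in KD against control and 1 was higher in OE against KD, beside 1.26%, 4.71% and 2.93% of all genes tested. Cntn1, a contactin that binds sodium channel beta subunits, fell in KD to 152 ± 30.6 CPM, against 382 ± 35.2 CPM in control (log2 -1.33, SE 0.13, edgeR adjusted p = 1.55e-09), and lay above KD in OE (326 ± 33.1 CPM in OE; log2 1.11, SE 0.11). Fgf12, an intracellular FGF-related protein that binds the sodium channel tail, fell in OE (log2 -0.67, edgeR adjusted p = 0.0095) and in KD (-0.75, edgeR adjusted p = 0.00396). The Fgf12 calls were lost without control 2 (OE, edgeR adjusted p = 0.0508), OE 1 (OE, 0.059) and KD 2 (KD, 0.158). Scn2a1, given above, was the other listed gene lower in KD. It is itself a pore gene and not a partner, so it adds 1 to the tested count and 1 to the KD count of this list.

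Of 23 tested calcium channel partners, 2 were higher and 0 lower in OE against control, 1 was higher and 2 lower in KD against control, and 2 were higher and 0 lower in OE against KD. All genes gave 3.65% higher and 1.26% lower, 7.0% higher and 4.71% lower, and 2.93% higher and 2.37% lower in the same order of comparisons. For the lower direction 5 partners had an unadjusted edgeR p under 0.05 in OE against control and 3 in OE against KD. Of the 12134 genes tested, 1055 and 1175 did. The thrombospondin gene Thbs1 rose in OE (log2 0.75, edgeR adjusted p = 0.00594) and KD (0.90, edgeR adjusted p = 0.000736), and Thbs2 rose in OE (1.06, SE 0.15, edgeR adjusted p = 7.44e-06; in OE against KD 0.76, edgeR adjusted p = 0.000172). Thrombospondins are astrocyte-derived ligands of the Cacna2d1 product. The active zone scaffold genes Erc1 (-1.13, SE 0.22, edgeR adjusted p = 0.000322) and Erc2 (-0.62, SE 0.16, edgeR adjusted p = 0.00528) fell in KD, and Erc1 was higher in OE than in KD (0.87, edgeR adjusted p = 0.00306). The call of Thbs1 in OE was lost without control 2 (0.68, edgeR adjusted p = 0.115) and without OE 3 (0.57, edgeR adjusted p = 0.064), and on the fold threshold with a replicate block (0.55). That of Thbs2 in OE against KD was lost without KD 1 (0.57), and that of Erc2 without control 2 (-0.55) and without KD 1 (-0.60).

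Among 10 AMPA receptor subunits and partners of the gamma proteins, 1 was higher and 0 lower in OE against control, with 3 lower at an unadjusted edgeR p under 0.05, and 1 was higher and 2 lower in KD against control. Of all genes, 3.65% were higher and 1.26% lower in OE, and 7.0% higher and 4.71% lower in KD. At the unadjusted threshold 1055 of the 12134 genes tested were lower in OE against control. Gria3, an AMPA receptor subunit gene, rose in OE (log2 0.66, edgeR adjusted p = 0.0187) and KD (0.62, edgeR adjusted p = 0.0242). The OE call was lost without control 2 (0.44, edgeR adjusted p = 0.253) and OE 2 (0.56, edgeR adjusted p = 0.0897), and the KD call without control 2 (0.39, edgeR adjusted p = 0.253) and KD 2 (0.45, edgeR adjusted p = 0.273). With limma-voom the OE call (0.65, adjusted p = 0.0549) and with DESeq2 the KD call (0.61, adjusted p = 0.052) were lost too. The postsynaptic scaffold gene Dlg4 (-0.67, SE 0.12, edgeR adjusted p = 0.000113) and the secreted AMPA receptor partner gene Olfm1 (-0.71, SE 0.09, edgeR adjusted p = 2e-07) fell in KD. OE lay above KD for Olfm1 (0.64, edgeR adjusted p = 3.79e-07), the 1 call in that comparison, where 2.93% of all genes were higher and 2.37% lower. Without control 2 and without KD 2 the Dlg4 value was -0.56 and -0.53, under the 1.5-fold threshold.

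Of 21 tested genes of intracellular calcium handling, 1 was lower in OE against control and 2 were lower in KD against control, beside 1.26% and 4.71% of all genes. In OE against KD 2 were higher and 1 lower, beside 2.93% and 2.37% of all genes. The endoplasmic reticulum calcium pump gene Atp2a2 fell to 256 ± 12.1 CPM in KD, against 412 ± 14.2 CPM in control (log2 -0.69, SE 0.10, edgeR adjusted p = 8.53e-06), and OE lay above KD (0.70, edgeR adjusted p = 1.84e-06). Calb2, the calcium-binding protein calretinin, fell in OE (-1.02, SE 0.23, edgeR adjusted p = 0.00524). It also lay lower in OE than in KD (-0.87, edgeR adjusted p = 0.0105), a call lost without KD 1, KD 2, OE 1 or OE 3 (-0.80, -0.92, -0.79 and -0.74) and with a replicate block (-0.75, edgeR adjusted p = 0.077). Orai2, a store-operated calcium channel gene, fell in KD (-0.66, edgeR adjusted p = 0.0282; lost without control 2 at -0.59 and without KD 1 at -0.46). OE lay above KD for Orai2 (0.61, edgeR adjusted p = 0.0355), which was lost without KD 1 (0.41), OE 2 (0.49) or OE 3 (0.59). DESeq2 gave Orai2 adjusted p = 0.0506 in KD against control and 0.0593 in OE against KD, and a replicate block gave 0.0647 in OE against KD. Of 13 tested regulators of neuronal transcripts, the transcription factor gene Mef2c (-1.43, SE 0.22, edgeR adjusted p = 1.93e-05) and the RNA-binding protein gene Elavl3 (-0.62, SE 0.09, edgeR adjusted p = 6.37e-06) fell in KD, where 4.71% of all genes were lower. Mef2c lay higher in OE than in KD (1.38, edgeR adjusted p = 1.03e-05), the 1 call of this list there, where 2.93% of all genes were higher. The Elavl3 value in KD against control was -0.55 both without control 2 and without KD 2, under the 1.5-fold threshold. In OE against control 0 of the 13 were called by edgeR, with 0 higher and 5 lower at an unadjusted p under 0.05. Of the 12134 genes tested, 1275 were higher and 1055 lower at that unadjusted threshold. Rest, which represses neuronal channel genes in other cells, was not called in any comparison, which does not show that it was unchanged.

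Markers of some other cells moved in the same libraries as the channel genes. Beside the marker counts, 3.65% of all genes were called higher and 1.26% lower in OE against control, and 7.0% higher and 4.71% lower in KD against control. Smooth muscle and pericyte markers (9 listed, 5 tested, Des at 0) summed to 322 to 459 CPM in OE, 766 and 823 CPM in KD, and 170 and 179 CPM in control, with 3 of 5 called higher in OE and 5 of 5 in KD. Proliferation markers summed to 614 to 750 CPM in OE, 955 and 1069 CPM in KD, and 339 and 394 CPM in control, with 9 of 12 called higher in OE and 12 of 12 in KD. Astrocyte and radial glia markers summed to 4402 to 4587 CPM in OE, 3889 and 4600 CPM in KD, and 2787 and 3165 CPM in control, with 5 of 14 called higher and 1 lower in OE, and 6 higher and 1 lower in KD. The 12 neuron markers summed to 7622 to 8270 CPM in OE, 7322 and 7566 CPM in KD, and 8750 and 8799 CPM in control, with 0 called in OE and 2 lower in KD (Elavl3 and Syp). At an unadjusted edgeR p under 0.05, 5 of the 12 were lower in OE and 8 in KD, and 0 were higher in either. Of the 12134 genes tested, 1055 were lower and 1275 higher in OE at that threshold, and 1618 lower and 1701 higher in KD. In KD 11 of the 12 neuron markers lay below 0, as did 49.9% of all genes. Of the 12, 5 had an adjusted p under 0.05 in KD, as did 1825 of the 12134 genes tested. Their median log2 was -0.16 in OE and -0.24 in KD, beside -0.09 and -0.41 for the 24 tested channel members. Fibroblast and meningeal markers (7 of 8 tested) summed to 229 to 303 CPM in OE, 265 and 299 CPM in KD, and 163 and 188 CPM in control, with Fn1 called higher in OE and KD and Col1a1 in OE. Of 7 tested interneuron markers Slc17a6 was called lower in OE and KD. Among 5 tested Schwann and neural crest markers Ngfr was called lower in KD. Against control 0 of 6 tested oligodendrocyte lineage markers were called, with 1 lower in OE and 2 higher in KD at an unadjusted edgeR p under 0.05. The microglia and endothelial lists had 1 tested marker each, not called, which does not show that these cells were unchanged. Motor neuron markers summed to 93.1 to 118 CPM in OE, 121 and 140 CPM in KD, and 91.6 and 97.3 CPM in control. Of the 5 tested, 1 was called, Ret, a GDNF receptor, which was higher in OE and KD. Against control 3 of the 5 lay below 0 in OE (median log2 -0.07) and 2 in KD (median 0.45). Skeletal muscle markers, the tissue of Scn4a, Cacna1s and Cacng1, summed to 3.14 to 5.55 CPM in OE, 5.28 and 7.18 CPM in KD, and 1.92 and 2.44 CPM in control, with Myod1 and Ckm at 0. The part of these shifts in the channel results was not tested.

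At an adjusted p under 0.05 and 1.5-fold, the authors' deposited table held Cacnb4 lower in OE against control. It held Scn3b higher and Cacna2d1, Cacna2d2, Cacng2, Cacng5 and Scn3a lower in KD against control. For OE against KD the authors' deposited table held the same 5 higher and 2 lower members as the fit described here.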

How the data were processed

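Messenger RNA of 7 libraries was sequenced as single reads of 50 bases. Per the labels' protocols, the submitters called bases in CASAVA 1.8.2, aligned to mm9 in TopHat2 2.0.10, and let HTSeq-count 0.6.1p1 count those reads with 1 unique position. Unique mapping can lower counts of near-identical copies. The labels do not state the strand setting. Raw counts, as deposited by the authors under that header, were the values analysed. The table also held the authors' log2 fold changes and adjusted p-values from DESeq2 1.4.5, per the labels' protocols, used here for comparison only, and scaled counts, not used here.

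The fit used edgeR 4.0.16 under R 4.3.3 (filterByExpr, TMM scaling, 1 quasi-likelihood fit of 7 libraries with group means, two-sided, 12134 genes tested, 4 residual degrees of freedom). The adjusted p covers all tested genes. Each standard error is the log2 fold change divided by the square root of F. The fit was tested on simulated data with 50 genes changed at each fold. It recovered 18% to 30% of 1.5-fold changes and 56% to 58% of 2-fold changes. A recovered gene had to be called, with an estimated change over 1.5-fold, so that threshold itself limits recovery of changes set at 1.5-fold. Alternatives used DESeq2 1.42.0, limma-voom 3.58.1, other scaling, no filter, a replicate block, 2 groups per fit and each library left out. Replicate pairs differed by 2.95 to 3.51 times the counting variance, so none was taken for a copy. Seed matches were searched in the longest 3' UTR per gene in the GENCODE annotation of mm9, and positions are 1-based.

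Members called in at least 1 comparison, and the 3 uncalled ones of highest mean CPM, were described in full, apart from genes whose results are not reported here, and every called gene of the 5 partner lists was named. Members and lists were chosen with earlier results of these data known.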

Additional observations from a re-analysis of the deposited data

Results flagged for a closer look

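The change from control differed between the viruses, by the edgeR test of OE against KD, for 7 subunit genes. The OE minus KD log2 values were 0.68 for Scn3a, 3.72 for Scn9a, -1.11 for Scn2b, 1.54 for Cacna2d1, 1.36 for Cacna2d2, -1.04 for Cacnb4 and 0.64 for Cacng2. The Scn9a value rests on 2 counts in KD, and the gene was tested through its counts in OE 2 and OE 3, so it is weaker ground than the other 6. Among the listed partner genes the same test gave 1.11 for Cntn1, 0.87 for Erc1, 0.76 for Thbs2, 0.64 for Olfm1, 0.61 for Orai2, 0.70 for Atp2a2, -0.87 for Calb2 and 1.38 for Mef2c. Groups of 2 and 3 libraries are too small for a test of single libraries that stand apart.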

How the results depend on the processing

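The calls of Cacna2d1, Cacna2d2 and Scn3a in KD against control and in OE against KD, of Scn3b and Cacng5 in KD against control, and of Scn2b and Cacnb4 in OE against KD held in all 13 alternatives run. With a library left out, subunit genes called numbered 0 to 1 higher and 0 to 2 lower in OE against control, 1 to 2 and 4 to 6 in KD against control, and 3 to 5 and 2 in OE against KD. The replicate numbers shared by the groups gave no sign of pairing (correlations of replicate differences across genes -0.05 for KD with control, 0.02 for OE with control and -0.03 for OE with KD). This check used replicates 1 and 2 alone, and noise in single genes can hide a weak pairing. With a replicate block, in which OE 3 is fitted by its own term, 2 subunit genes were lower in OE against control, as Scn2b (-0.82) joined Cacnb4, and Scn9a lost its call (3.42, edgeR adjusted p = 0.062). Scn9a also lost it with limma-voom (3.17, adjusted p = 0.0934), and DESeq2 gave it no adjusted p.

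Over all genes, 443 rose in OE against control, but 223 with limma-voom, and 287 were lower in OE against KD, but 154 with DESeq2. Counts moved by over 1.5 times for genes higher in OE against control without control 2 (237) and without OE 3 (294), higher in KD against control without KD 2 (486), and lower in OE against KD without KD 1 (132), KD 2 (110) and OE 1 (187). With a library left out the counts ran from 237 to 434 higher and 103 to 172 lower in OE against control, 486 to 833 and 396 to 567 in KD against control, and 239 to 410 and 110 to 356 in OE against KD. Signs turned for uncalled values near 0: with a library left out, log2 values in OE against control ran from -0.113 to 0.0118 for Scn3a, -0.0912 to 0.0261 for Cacna2d1, -0.205 to 0.103 for Cacna2d2, -0.239 to 0.0535 for Cacng2, -0.262 to 0.324 for Scn8a and -0.0231 to 0.172 for Cacna2d3. In OE against KD they ran from -0.143 to 0.0503 for Cacna2d3 and from -0.0675 to 0.237 for Cacna1a, which gave -0.0669 with a replicate block. The cause was not tested. Shallow controls and 2 or 3 libraries a group limit what members under 20 CPM can show.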
